A study of Homo sapiens with 16 samples.

Results

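The 10 genes described here belong to the integrated stress response and the endoplasmic reticulum (ER) stress response, and were followed through neural differentiation of human embryonic stem cells, in control cells and in cells with sustained O-GlcNAcylation. They were taken by name, as ATF4, DDIT3, ATF3, TRIB3, CHAC1, ASNS, SESN2, DDIT4, HSPA5 and XBP1, which are 10 of the 57736 genes counted. Each was found under its own identifier, and all 10 passed the filter on low counts that left 24249 genes for testing. Among the 16 libraries, the lowest count of any member was 17 (CHAC1) and the highest was 21650 (HSPA5).

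RNA was sequenced from H9, an established human embryonic stem cell line, on D0 and on D12, D30 and D70 of a cortical neuron protocol. Differentiation began with dual SMAD inhibition by LDN-193189 and SB-431542, 2 inhibitors of BMP and TGF-β signalling that steer stem cells towards a neural fate. TMG-treated cells received 40 µM Thiamet-G, an inhibitor of the enzyme OGA that removes O-GlcNAc from proteins, dissolved in DMSO, and control cells received DMSO. Each of the 8 groups, control and TMG on 4 days, had 2 libraries of rRNA-depleted total RNA. Control and TMG-treated cells therefore shared the cell line, the SMAD inhibitors and the solvent. The study's methods call the replicates biological and say that the differentiation was repeated, but neither they nor the labels say which differentiation each library came from, so p-values here measure only the spread between these libraries. Library totals ran from 10334908 to 19836878 estimated counts.

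The labels disagree about treatment in 8 of the 16 libraries, and this bears on every TMG comparison below. The sample titles and the sample codes give 2 control and 2 TMG libraries at each stage, and these set the groups. A separate treatment field names every replicate 1 as control and every replicate 2 as TMG. A difference between replicates 1 and 2 is therefore also the difference that the treatment field would give, and both comparisons are reported. OGT, which encodes the transferase that adds O-GlcNAc and which was chosen after the conflict was seen, was higher in both TMG libraries than in both control libraries at all 4 stages when grouped by title. Of all genes tested, 0.441% showed that pattern, and 0.883% were below at all 4 stages. Its log2 fold change (TMG over control) was 0.21, 0.33, 0.64 and 0.40 on D0, D12, D30 and D70, with an adjusted p of 0.133 for the mean of the stages, whereas its log2 fold change for replicate 2 over replicate 1 lay between -0.08 and 0.10. OGA, also chosen then, was higher in both TMG libraries on D0 and D70, as were 19.7% and 9.77% of all genes. Its groups overlapped on D12 and D30. Its log2 fold change (TMG over control) was 0.39, 0.22, 0.16 and 0.43 on the 4 days, with an adjusted p of 0.338 for the mean. For replicate 2 over replicate 1 it lay between -0.21 and 0.30. The cell type markers SOX2 and POU5F1 were picked after their values were seen. By title, SOX2 was lower in both TMG libraries on D12 and D30, as were 16.5% and 21% of all genes. Its groups overlapped on D0 and D70. POU5F1 was higher in both TMG libraries on D30, as were 23.1% of all genes, and on no other day. Neither marker was separated by replicate number on D12 or D30. On D70, however, SOX2 was lower in both replicates 2 (50.7 and 22.7 CPM in control and TMG) than in both replicates 1 (111.8 and 52.7 CPM). Which label is right was not tested.

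The integrated stress response starts when kinases that sense misfolded protein in the ER, amino acid shortage, viral RNA or lack of haem phosphorylate the translation factor eIF2. General protein synthesis then slows, while the mRNA of the transcription factor ATF4 is translated more efficiently. ATF4 switches on genes for amino acid supply and, with its partners DDIT3 and ATF3, genes that limit growth or favour cell death. Misfolded protein in the ER also activates the ATF6 and IRE1 branches of the unfolded protein response, which raise chaperones such as HSPA5 and splice the mRNA of XBP1 into an active form. Gene counts measure mRNA abundance only, so neither ATF4 translation nor XBP1 splicing was measured.

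Short promoter sites are printed because they are the sequence features through which these 2 arms are read out. Start-site windows from RefSeq (GRCh37, 250 bases before to 50 after each start) were searched on both strands for 3 motifs, and 17 windows belonged to the 10 members. The core of the C/EBP-ATF response element, TGATGNAA, was found in windows of 3 members and in 3.62% of all 35116 windows. The ER stress response element, CCAAT followed after any 9 bases by CCACG, was found in windows of 2 members and in 0.0769% of all windows. The cAMP response element, TGACGTCA, was found in no member window and in 1.85% of all windows. These matches are descriptions of sequence and were not tested for binding. Each site is given as 30 bases on the strand of its gene, 5′ to 3′, with the motif in capitals. The ATF3 site lies at chr1:212738547-212738576 on the plus strand, with its motif 191 to 184 bases before the start. The ASNS site lies at chr7:97501770-97501799 on the minus strand (68 to 61 bases before the start), and the CHAC1 site, whose motif reads on the opposite strand of the gene, at chr15:41245449-41245478 on the plus strand (209 to 202 bases before the start).
ATF3: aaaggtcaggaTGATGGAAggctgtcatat
ASNS: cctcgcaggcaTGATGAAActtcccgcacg
CHAC1: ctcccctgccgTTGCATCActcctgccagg
The 2 sites with the ER stress response element are those of HSPA5, at chr9:128003664-128003693 on the minus strand (66 to 48 bases before the start), and XBP1, at chr22:29196585-29196614 on the minus strand (52 to 34 bases before the start).
HSPA5: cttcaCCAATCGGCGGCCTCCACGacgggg
XBP1: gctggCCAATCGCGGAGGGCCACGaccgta

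A group of 3 libraries stood apart from the others of their stage in cell type markers, which were fixed as lists for stem cells, neural progenitors, neurons, mesenchyme, and pigment epithelium with choroid plexus. Values are summed CPM, the counts scaled to library size with edgeR's TMM factors. The summed mesenchyme markers came to 7333 and 45314 CPM in control replicates 1 and 2 and to 3678 and 59515 CPM in TMG replicates 1 and 2 on D70. On D30 they came to 4343 and 5170 CPM in control cells and to 5594 and 29726 CPM in TMG-treated cells, and on D12 they lay between 1046 and 1831 CPM. Summed neuron markers on D70 were 1151 and 562 CPM in control cells and 1179 and 219 CPM in TMG-treated cells. In control cells SNAP25 (9.71 and 13.4 CPM in replicates 1 and 2) and SYT1 (43.4 and 81.5 CPM) were higher in replicate 2, and the other neuron markers were lower. In TMG-treated cells SNAP25 was level (13.3 and 13.4 CPM), and the others were lower in replicate 2. Neural progenitor markers on D70 summed to 605 and 528 CPM in control cells and to 802 and 97.7 CPM in TMG replicates 1 and 2. Stem cell markers fell within 3228 to 3697 CPM on D0 and 1.90 to 3.47 CPM on D70. The neural progenitor marker SOX1 stood at 0.4 CPM or less in every library. In bulk RNA, fewer cells of a type and less RNA per cell cannot be told apart.

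ATF4, the transcription factor at the centre of the response, lies at chr22:39915700-39918688 (GRCh37, plus strand). On D0 it stood at 184 and 341 CPM in control replicates 1 and 2 and at 215 and 214 CPM in TMG replicates 1 and 2. In the same order it measured 162, 132, 172 and 128 CPM on D12 and 137, 159, 104 and 201 CPM on D30. On D70 the values were 97.4, 181, 98.8 and 239 CPM. The 2 replicates of a group differed by more than the 2 treatments on D70, and the highest value of all was that of D0 control replicate 2.

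DDIT3 (CHOP), a factor tied to cell death under prolonged ER stress, lies at chr12:57910371-57915520 on the minus strand. It was measured at 3.95, 15.3, 6.11 and 6.34 CPM on D0 and at 13.2, 12.2, 12.2 and 8.08 CPM on D12, for control replicates 1 and 2 and then TMG replicates 1 and 2. On D30 it stood at 20.02 and 21.7 CPM in control cells and at 9.62 and 10.5 CPM in TMG-treated cells, and on D70 at 9.32, 27.2, 7.19 and 21.0 CPM. The D30 groups did not overlap, while those of the other 3 stages did. DDIT3 overlaps MARS1 and MBD6 on the other strand. Whether counting used strand is not given in the sources used here, and with 3007 counts for DDIT3 against 36942 for MARS1 over all libraries, its values are uncertain.

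ATF3, an early-response factor induced by many stresses, lies at chr1:212738676-212794119 on the plus strand. It stood at 9.89, 24.1, 13.1 and 13.04 CPM on D0 and at 46.4, 49.0, 57.6 and 31.6 CPM on D12, in the same library order. The values were 50.6, 34.7, 39.3 and 19.6 CPM on D30 and 23.7, 11.8, 16.7 and 14.9 CPM on D70. Every D12 library was above every D0 library, and every D70 library was below every D12 library.

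TRIB3, a pseudokinase that feeds back on ATF4 and DDIT3, lies at chr20:343479-378203 on the plus strand. It was even on D0, at 7.11, 7.69, 7.07 and 7.57 CPM. The values were 7.18, 3.78, 6.96 and 3.42 CPM on D12 and 10.3, 12.6, 8.26 and 22.1 CPM on D30. On D70 it stood at 10.9 and 108 CPM in control replicates 1 and 2 and at 10.8 and 119 CPM in TMG replicates 1 and 2. The 2 replicates 2 of D70 were thus far above the other 14 libraries, in both arms alike.

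CHAC1, an ATF4 target that degrades glutathione, lies at chr15:41245160-41248710 on the plus strand. It stood at 9.52, 17.8, 12.3 and 13.5 CPM on D0 and at 11.8, 2.79, 9.98 and 2.24 CPM on D12. The values were 1.88, 3.86, 1.65 and 19.5 CPM on D30 and 3.73, 17.8, 3.16 and 29.0 CPM on D70. From D12 on, its 2 replicates never lay close together in TMG-treated cells, with replicate 2 the lower on D12 and the higher on D30 and D70.

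ASNS, the enzyme that makes asparagine and a textbook ATF4 target, lies at chr7:97480989-97501854 on the minus strand. It stood at 61.5, 62.1, 89.0 and 82.8 CPM on D0, with both TMG libraries above both control libraries. The values were 58.5, 22.8, 60.0 and 18.1 CPM on D12, then 34.5, 34.1, 32.4 and 76.0 CPM on D30, and 28.2, 83.9, 30.3 and 103 CPM on D70. As for CHAC1, replicate 2 was the lower on D12 and the higher on D70 in both arms.

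SESN2 and DDIT4 both restrain mTORC1 signalling under stress. SESN2 (chr1:28586029-28609002, plus strand) stood at 36.6, 39.9, 31.9 and 35.4 CPM on D0 and at 24.6, 52.4, 19.7 and 51.9 CPM on D70, and lay between 22.7 and 39.0 CPM on D12 and D30. DDIT4 (chr10:74033678-74035794, plus strand) stood at 71.2, 106, 86.4 and 87.2 CPM on D0 and at 81.5, 126, 83.8 and 123 CPM on D12. On D30 it measured 91.7 and 106 CPM in control cells and 51.2 and 62.7 CPM in TMG-treated cells, and on D70 the 4 values were 101.4, 264, 70.2 and 169 CPM. DDIT4 was higher in replicate 2 than in replicate 1 of both arms at all 4 stages, and SESN2 on D0, D30 and D70 but not on D12.

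HSPA5 (BiP), the main ER chaperone, lies at chr9:127997132-128003661 on the minus strand. It stood at 589, 335, 456 and 466 CPM on D0 and at 170.3, 1185, 197 and 631 CPM on D12. The values were 812, 648, 366 and 473 CPM on D30 and 586, 501, 475 and 590.3 CPM on D70. The lowest and the highest HSPA5 values of the series were therefore the 2 control libraries of D12. XBP1 (chr22:29190543-29196585, minus strand), the factor activated by splicing, had the smallest ratio of highest to lowest value, from 48.4 to 120.0 CPM over the 16 libraries. Pseudogenes named after a member held at most 1.57% of that member's counts.

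**Figure D1:**
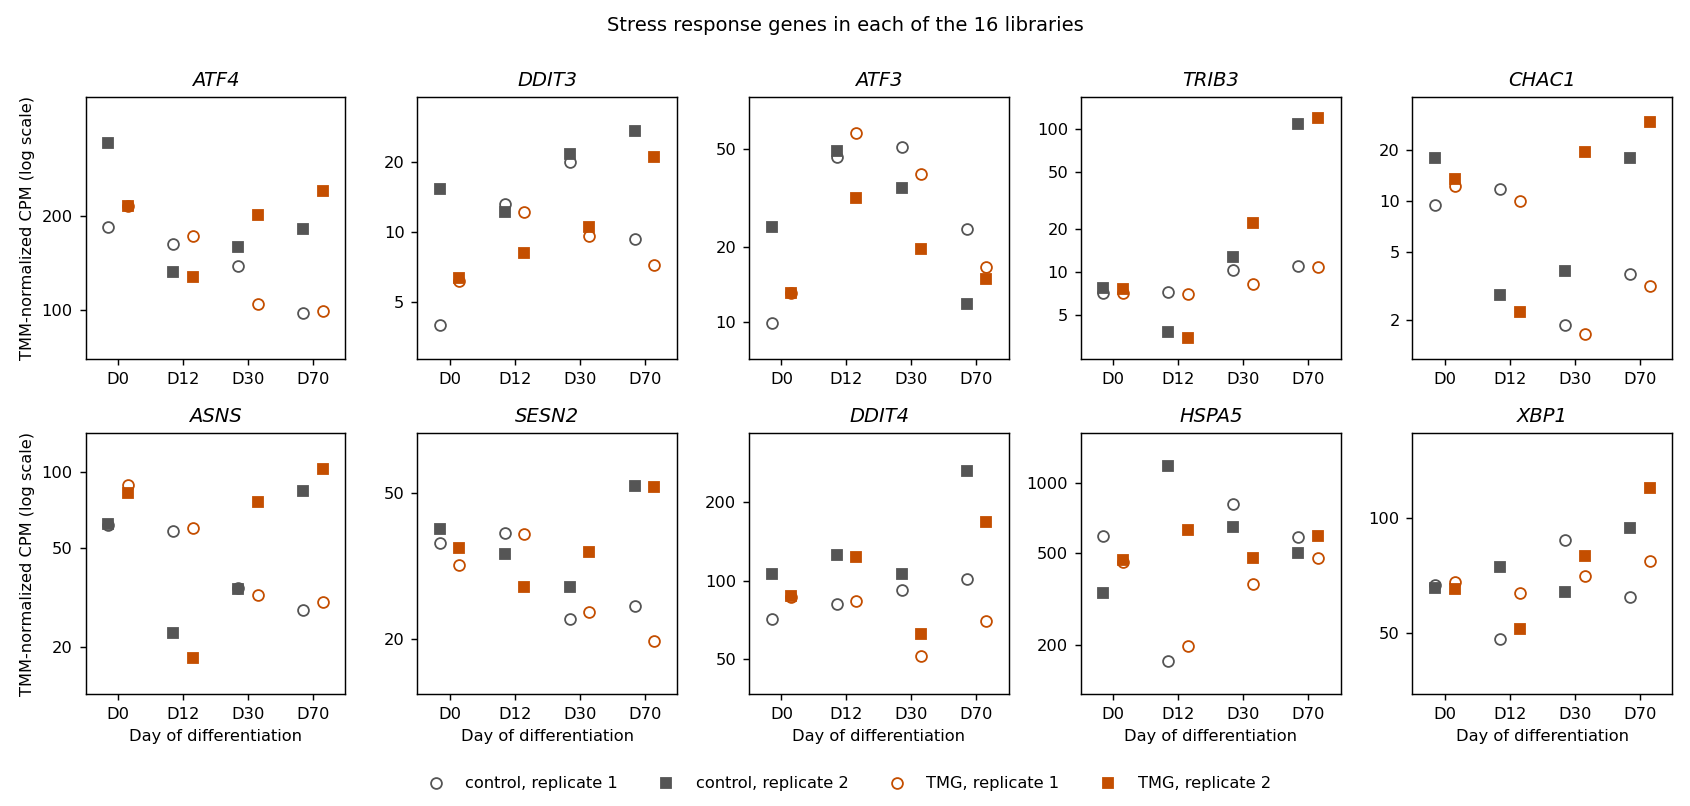
Level of each of the 10 genes in the 16 libraries, in TMM-scaled CPM on a log axis, by day of differentiation. Grey marks control and orange TMG, open circles replicate 1 and filled squares replicate 2, and on D70 the squares of TRIB3, at 108 and 119 CPM, stand far above the circles.

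The first comparison asks whether sustained O-GlcNAcylation changed these genes at any stage, with libraries grouped by title. No member passed the test at D0, D12, D30 or D70 (edgeR's quasi-likelihood test, Benjamini-Hochberg adjusted p under 0.05, 2 against 2 libraries), and none had an unadjusted p under 0.05. DESeq2 also called 0 of the 10 at each stage. Among all genes tested, edgeR called 0% at each of the 4 stages, and DESeq2 called 0.0206%, 0.0454%, 2.46% and 0.227% on D0, D12, D30 and D70. At an unadjusted p under 0.05, edgeR gave 306, 601, 2908 and 1332 genes. For the mean TMG effect over the 4 stages, edgeR called 0.00412% of genes and DESeq2 2.12%, again with 0 members by either tool and 0 at an unadjusted p under 0.05.

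The log2 fold changes (TMG over control) ran from -0.62 (DDIT3, SE 0.66) to 0.47 (ASNS, SE 0.73) on D0 and from -0.71 (HSPA5, SE 0.72) to 0.03 (ATF4) on D12. On D70 they ran from -0.62 (DDIT4, SE 0.48) to 0.58 (CHAC1), and the lowest adjusted p of any member was 0.946. Single libraries turned several of these values, as HSPA5 on D12 was 1.28 without control replicate 2 of that day, ATF4 on D12 was -0.20 without TMG replicate 1, DDIT4 on D70 was 0.25 without control replicate 2, and CHAC1 on D70 was -1.75 without TMG replicate 2. The standard errors, which come from a spread shared over all 8 groups, were as large as most of these differences.

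The largest fitted differences were those of D30. CHAC1 had a log2 fold change of 1.86 (SE 1.31, adjusted p = 0.620), ASNS one of 0.66 (SE 0.74, adjusted p = 0.786) and TRIB3 one of 0.40 (SE 1.06, adjusted p = 0.927). All 3 of these positive values rested on TMG replicate 2, the D30 library that was also high in mesenchyme markers. Without that library they were -0.82 for CHAC1, -0.09 for ASNS and -0.48 for TRIB3. The part of the mesenchyme markers in these values was not tested.

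DDIT3, DDIT4 and HSPA5 were lower in both TMG libraries than in both control libraries on D30, as were 21% of all genes tested, and no member was above, as 23.1% of all genes were. Their log2 fold changes were -1.05 (SE 0.66, adjusted p = 0.567), -0.79 (SE 0.48, adjusted p = 0.548) and -0.80 (SE 0.72, adjusted p = 0.715). Leaving out any 1 of the 4 D30 libraries kept these values below 0. For the remaining members on D30, ATF3 stood at -0.53 (SE 0.48), SESN2 at 0.21, ATF4 at 0.04 and XBP1 at -0.02. With 1 library left out, ATF3 ran from -1.12 to -0.11. The median over the 10 members was 0.01, and over all genes 0.01.

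DDIT3 had a negative fitted value at each stage, of -0.62, -0.32, -1.05 and -0.37 on D0, D12, D30 and D70. Its mean over the stages was -0.59 (SE 0.33, adjusted p = 0.507). The D0 value rested on control replicate 2 and was 0.66 once that library was dropped. On D70, dropping control replicate 2 made it 0.61 and dropping TMG replicate 1 made it 0.20. DDIT4 had a mean of -0.36 (SE 0.24), HSPA5 of -0.39, ATF3 of -0.29, ASNS of 0.33 and CHAC1 of 0.53, and the other 4 members lay within 0.11 of 0. With 1 library left out, the mean ran from -0.83 to -0.27 for DDIT3 and from -0.55 to -0.14 for DDIT4. It ran from -0.44 to -0.10 for ATF3 and from 0.05 to 0.58 for ASNS. For HSPA5 and CHAC1 it turned direction, running from -0.65 to 0.11 and from -0.14 to 0.92. Besides the D30 members, ASNS on D0 had both TMG libraries above both controls, as for 19.7% of genes, and SESN2 on D0 both below, as for 16.9%. No member had groups that did not overlap on D12, when 17.8% of genes were above and 16.5% below, or on D70, with 9.77% above and 12.4% below. The change of the TMG effect from one stage to the next passed for 0 members, and for 0% of all genes, by edgeR, and for 0 members by DESeq2, which called 3, 17 and 24 of all genes for the 3 steps.

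**Figure D2:**
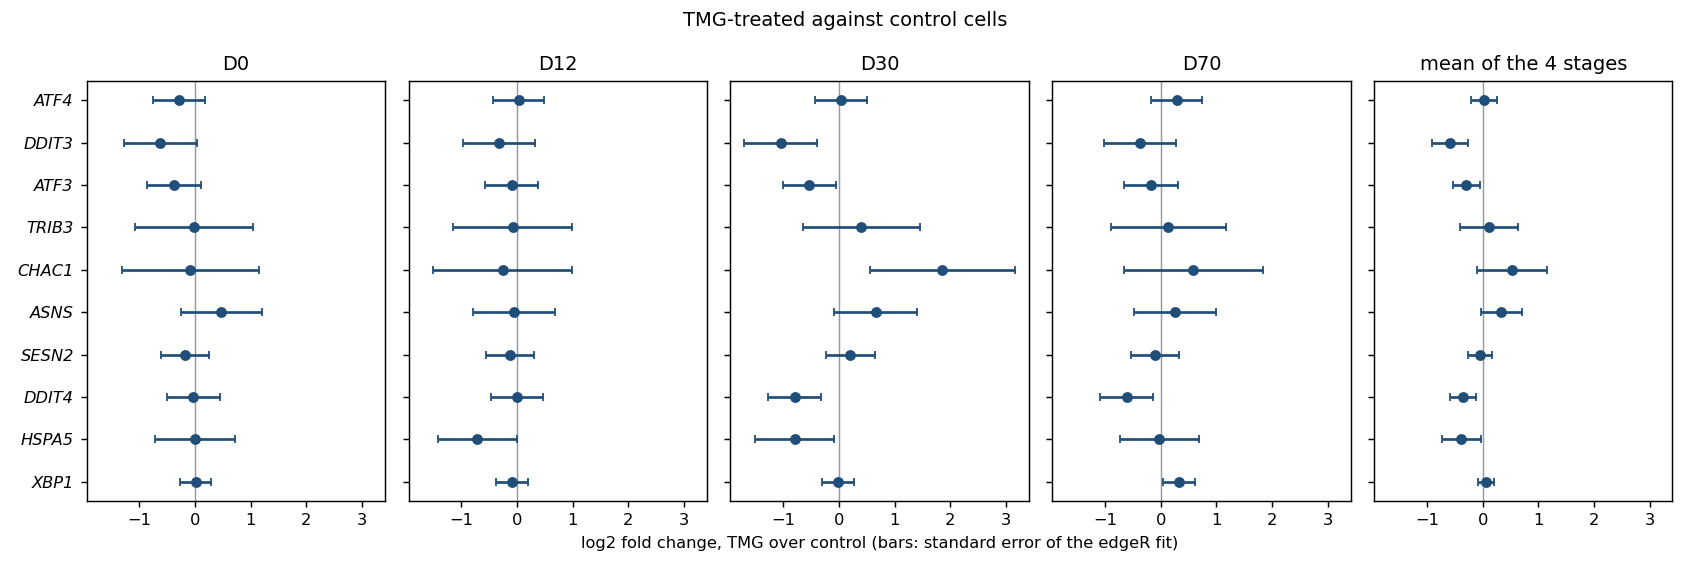
Log2 fold change of TMG over control for the 10 genes on D0, D12, D30 and D70 and for the mean of the 4 stages, with bars of 1 standard error from the edgeR fit. No value passed at an adjusted p under 0.05, and CHAC1 on D30 (1.86, SE 1.31) is the farthest from 0.

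Differentiation itself was followed in the control libraries. None of the 10 genes passed edgeR's test in any of the 6 pairs of stages, although many other genes did. Of all genes, edgeR called 16.7% for D12 against D0, 30.6% for D30 against D0 and 29.8% for D70 against D0. It called 3.6% for D30 against D12, 11.1% for D70 against D12 and 0.384% for D70 against D30. At an unadjusted p under 0.05, 1, 1, 1, 0, 2 and 1 members were counted in the same order of pairs, beside 32.0%, 42.8%, 42.5%, 20.4%, 29.4% and 18.4% of all genes. DESeq2 called 1, 1, 1, 0, 2 and 0, beside 22.6%, 35.4%, 35.1%, 10.3%, 18.7% and 7.08% of all genes.

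ATF3 was the member nearest to the threshold early in differentiation. Its log2 fold change was 1.49 (SE 0.49, adjusted p = 0.0608) for D12 against D0 and 1.33 (SE 0.49, adjusted p = 0.0611) for D30 against D0. It then had values of -1.42 (SE 0.49, adjusted p = 0.0855) for D70 against D12 and -1.26 (SE 0.49, adjusted p = 0.210) for D70 against D30. DESeq2 called it for D12 against D0, D30 against D0 and D70 against D12. Without D0 control replicate 2, edgeR called it for D12 against D0, at 2.27, and for D30 against D0, at 2.11, with D0 then held by 1 library that is assumed to vary like the other groups. Without D0 control replicate 1 the values were 1.01 and 0.87, and edgeR called neither.

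TRIB3 had the largest fitted change at the end of differentiation, with a log2 fold change of 3.004 (SE 1.12, adjusted p = 0.0658) for D70 against D0. It had 3.44 (SE 1.14, adjusted p = 0.0784) for D70 against D12 and 2.37 (SE 1.09, adjusted p = 0.278) for D70 against D30. The level behind these values was that of D70 control replicate 2, at 108 CPM. Without that library the log2 fold change was 0.57 for D70 against D0 and 0.98 for D70 against D12, and it turned to -0.11 for D70 against D30. With D70 represented by that library alone, TRIB3 had 3.86 for D70 against D0 and 4.29 for D70 against D12. DDIT4 then had 1.57 for D70 against D0. D70 was 1 library in these fits, the one whose level had been seen, so no call is drawn from them.

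The other stage values stayed farther from the threshold. DDIT4 had 1.05 (SE 0.48, adjusted p = 0.121) for D70 against D0, which was 0.21 without D70 control replicate 2. ATF4 had -0.84 (SE 0.47, adjusted p = 0.245) for D12 against D0 and -0.92 (SE 0.47, adjusted p = 0.160) for D70 against D0. In the absence of D0 control replicate 2, its highest library, these were -0.32 and -0.40. Leaving out the 3 libraries highest in mesenchyme markers, a step chosen after seeing the data, made the value for D70 against D0 -1.39. D70 control was then held by 1 library, so no call is drawn from that fit. With only 1 library left out, the value reached -1.42. CHAC1 had -2.22 (SE 1.32, adjusted p = 0.222) and DDIT3 1.12 (SE 0.66, adjusted p = 0.217) for D30 against D0. DDIT3 had 2.40 in the absence of D0 control replicate 2 and 0.50 in the absence of D0 control replicate 1.

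The second comparison was replicate 2 against replicate 1, the reading that the treatment field would give. This comparison was chosen after seeing the data, and it was fitted with a TMG effect at each stage so that both arms contributed. The TMG comparison above had no term for replicate number, so differences between replicates entered its spread. For ASNS on D70 the SE was 0.74 there and 0.27 here, so the counts called are not on equal terms. With replicate number as a block within each stage, no member was called for TMG on D30, beside 0.961% of all genes. On D70, 7 of the 10 members passed edgeR's test, all higher in replicate 2: TRIB3, CHAC1, ASNS, DDIT3, DDIT4, SESN2 and ATF4. Of all genes, 18.3% passed, and 7.6% did so with replicate 2 higher. DESeq2 also called 7 members, beside 18.9% of all genes. The median log2 fold change over the 10 members was 1.28, beside 0.00 over all genes.

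TRIB3 was 10.4-fold higher in replicate 2 on D70 (log2 fold change 3.38, SE 0.27, adjusted p = 0.00151), which was 9.88-fold in control cells and 11.0-fold in TMG-treated cells. CHAC1 was 6.57-fold higher (2.72, SE 0.54, adjusted p = 0.0162), at 4.77-fold in control and 9.19-fold in TMG. ASNS was 3.18-fold higher (1.67, SE 0.27, adjusted p = 0.00790), at 2.97-fold in control and 3.40-fold in TMG. For each of these 3 ATF4 targets the direction was the same in both arms, and the gap between the arms was widest for CHAC1.

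DDIT4 had a log2 fold change of 1.32 (SE 0.15, adjusted p = 0.00278) and SESN2 one of 1.24 (SE 0.16, adjusted p = 0.00339). DDIT3 had 1.54 (SE 0.40, adjusted p = 0.0366) and ATF4 itself 1.08 (SE 0.26, adjusted p = 0.0270), at 1.86-fold in control and 2.42-fold in TMG. MARS1, which overlaps DDIT3 on the other strand, was also called higher in replicate 2. Its part in the DDIT3 counts was not tested. XBP1 (0.62, adjusted p = 0.111), HSPA5 (0.04, adjusted p = 0.946) and ATF3 (-0.59, adjusted p = 0.323) did not pass. The members called were thus ATF4, its partner DDIT3 and 5 further genes of the ATF4 arm. The ER chaperone, XBP1 and ATF3, the other partner of ATF4, were not among them. A difference between the arms was not tested.

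Fewer members passed on D70 within a single arm. Because the fit holds a TMG effect for each stage, leaving out a D70 library leaves the comparison of 1 replicate 2 with 1 replicate 1 in the other arm, and the spread then comes from the other stages. Both fits that lack a library of the same arm thus repeat nearly the same comparison. TRIB3, ASNS, DDIT4 and SESN2 passed whichever of the 4 D70 libraries was left out. With TMG replicate 1 or TMG replicate 2 left out 4 members passed, with control replicate 1 left out 5, and with control replicate 2 left out 6. Of all genes, 3.34%, 3.25%, 5.80% and 6.16% passed as higher in replicate 2 in these fits. DDIT3 lost the call in all 4 of these fits, with log2 fold changes of 1.53 to 1.59, ATF4 in 3, with 0.88 to 1.27, and CHAC1 in 2, with 2.24. The 2 replicates 2 of D70 were the libraries with 45314 and 59515 CPM of mesenchyme markers, against 7333 and 3678 CPM in the replicates 1, and every marker of that list was detected in all 4. COL1A1, a collagen of mesenchyme, stood at 20367 and 27654 CPM in the replicates 2 and at 2403 and 1876 CPM in the replicates 1. Pigment epithelium and choroid plexus markers summed to 960.1 and 17.7 CPM in the replicates 2 and to 10104 and 3102 CPM in the replicates 1, sums set mostly by TTR in the replicates 1. In TMG-treated cells all 6 of these markers were lower in replicate 2, while in control cells PMEL (107 and 598 CPM in replicates 1 and 2) and TYR (11.4 and 98.7 CPM) were higher there and the other 4 lower. The part of these cell type markers in the D70 result was not tested. Both replicates 2 of D70 were high in mesenchyme markers, so on that day replicate number and these markers cannot be told apart.

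On D12 the members moved in another pattern, and none passed edgeR's test, as for 0% of all genes. An unadjusted p under 0.05 was seen for 5 members, beside 9.99% of all genes, and DESeq2 called 3 of them, HSPA5, ASNS and CHAC1, beside 0.911% of all genes. HSPA5 had a log2 fold change of 2.24 (SE 0.35, adjusted p = 0.174), with replicate 2 at 6.96 times the CPM of replicate 1 in control cells and 3.20 times in TMG-treated cells. ASNS had -1.54 (SE 0.27, adjusted p = 0.216) and CHAC1 -2.11 (SE 0.54, adjusted p = 0.327). In replicate 1, ASNS was 2.56-fold and 3.31-fold higher than in replicate 2 in control and TMG-treated cells, and CHAC1 4.22-fold and 4.46-fold. TRIB3 had -0.97 (adjusted p = 0.349) and DDIT4 0.59 (adjusted p = 0.332). The chaperone was thus measured higher, and 3 ATF4 targets lower, in replicate 2 of both arms on D12, with DDIT4 in the direction of the chaperone.

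On D0 and D30 no member passed edgeR's test for replicate 2 against replicate 1, beside 0% and 0.00412% of all genes. At an unadjusted p under 0.05 there were 1 and 3 members, beside 2.04% and 13.96% of all genes. DESeq2 called 0 on D0 and 1 on D30, CHAC1, beside 0.157% and 1.8% of all genes.

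**Figure D3:**
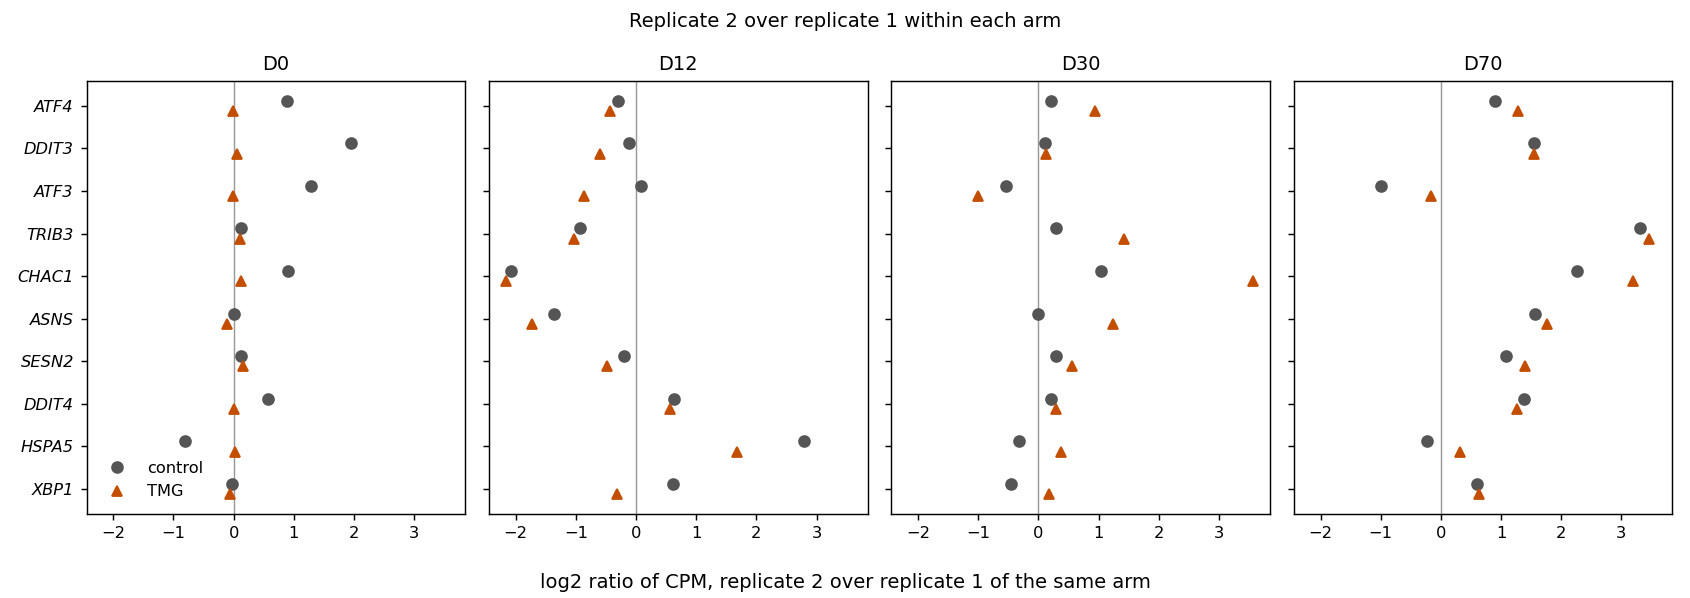
Log2 ratio of the CPM of replicate 2 to that of replicate 1 for each of the 10 genes, within control (grey) and within TMG (orange), on D0, D12, D30 and D70. On D70 TRIB3, CHAC1, ASNS, DDIT3, DDIT4, SESN2 and ATF4 lie above 0 in both arms, and on D12 HSPA5 lies above 0 and ASNS, CHAC1 and TRIB3 below it.

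Lists of neighbouring stress genes place the members among the rest of each pathway. They held 139 genes in 11 lists, of which 138 were tested, FGF21 having too few counts. For replicate 2 against replicate 1 on D70, 38 of the 138 (27.5%) passed edgeR's test, beside 18.3% of all genes, and 46 (33.3%) passed by DESeq2, beside 18.9%. With TMG replicate 1 or TMG replicate 2 of D70 left out, 16 passed by edgeR, beside 8.81% or 8.76% of all genes. Aminoacyl-tRNA synthetases of the cytosol, which charge tRNAs and include many ATF4 targets, had 10 of 12 higher in replicate 2 and none lower (median log2 fold change 1.01). Genes of amino acid synthesis and transport had 12 of 20 higher (median 0.96), and other ATF4-linked factors had 4 of 11 higher (median 1.24). Without TMG replicate 1 or TMG replicate 2 of D70 these 3 counts were 3, 5 and 3, when 3.34% or 3.25% of all genes passed with replicate 2 higher. Without either D70 control library they were 10, 10 and 3.

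The genes with the lowest p in those lists, picked after their values were seen, illustrate the size of the D70 difference. ATF5, a relative of ATF4, stood at 12.99 and 141 CPM in control replicates 1 and 2 and at 15.3 and 156 CPM in TMG replicates 1 and 2 (log2 fold change 3.39, adjusted p = 0.00164). ALDH1L2, a mitochondrial folate enzyme, stood at 9.10, 147, 16.4 and 209 CPM in the same order (3.84, adjusted p = 0.00241). NUPR1, a small stress-induced nuclear protein, had 3.55 (adjusted p = 0.00216), and SLC1A5, a glutamine transporter, 1.99 (adjusted p = 0.00311). Among the synthetases, WARS1 for tryptophan had 1.05 (adjusted p = 0.00317) and AARS1 for alanine 1.06 (adjusted p = 0.00391). These 6 genes were picked by their p in the same libraries, so fits of 1 arm alone give no separate support. With 1 D70 library left out, the log2 fold change ran from 0.89 to 1.27 for AARS1 and from 1.01 to 1.11 for WARS1. TARS1, the next synthetase by p, had 0.97 and ran from 0.82 to 1.16. It lost the call without TMG replicate 1 or without TMG replicate 2 of D70.

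ER chaperones and folding enzymes, the list nearest to HSPA5, had 0 of 16 called on D70 by edgeR (median 0.05), and DESeq2 called 1. Genes of ER-associated degradation had 2 of 12 higher (median 0.13), kinases and eIF2 regulators of the integrated stress response 2 of 14 higher (median 0.20), and sensors of the unfolded protein response 2 of 7 higher (median 0.08), counts to be read beside the 7.6% of all genes that passed as higher in replicate 2. The 2 of ER-associated degradation and the 2 of the kinase list did not pass without TMG replicate 1 or without TMG replicate 2, and 1 of the sensors did. Of the sensors, CREB3L1, a membrane-bound factor also known from collagen-making cells, had 3.37 (adjusted p = 0.00164). Heat shock proteins had 2 of 12 lower, p53 targets 2 of 12 lower, and immediate early genes 1 of 14 higher and 1 lower, beside 10.7% of all genes called lower. Sestrins with TSC and mTORC1 regulators had 0 of 8 called by edgeR and by DESeq2 alike. The lists with the largest shares higher in replicate 2 were thus those of amino acid supply, tRNA charging and ATF4-linked factors.

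On D12 the list of HSPA5 had the same direction as HSPA5. All 16 ER chaperones and folding enzymes had a positive log2 fold change for replicate 2 over replicate 1, with a median of 1.25 beside -0.02 over all genes, and 14 had an unadjusted p under 0.05, beside 9.99% of all genes. None passed after adjustment by edgeR with the filter on low counts. DESeq2 called 11 of the 16, MANF, HYOU1 and HSP90B1 among them, beside 0.911% of all genes, and edgeR without the filter called MANF and HYOU1, beside 0.102% of all genes. Heat shock proteins, with 12 of 12 positive (median 0.42), and ER-associated degradation, with 10 of 12 positive (median 0.40), had that direction as well, and HSPA8, the constitutive cytosolic chaperone, had 1.48 (adjusted p = 0.145). HSP90B1, the ER form of HSP90, stood at 261 and 1239 CPM in control replicates 1 and 2 and at 291 and 759 CPM in TMG replicates 1 and 2 (1.81, adjusted p = 0.174). MANF, a secreted ER stress protein, stood at 13.3, 66.3, 14.3 and 43.1 CPM (1.95, adjusted p = 0.145), and HYOU1 had 1.53 (adjusted p = 0.167). Amino acid genes had a median of -0.50 with 4 of 20 positive, synthetases one of -0.37 with 1 of 12 positive, and other ATF4-linked factors one of -0.51. Cell type markers also differed between the replicates of D12, and their part was not tested. Pigment epithelium and choroid plexus markers summed to 222 and 315 CPM in control and to 214 and 433 CPM in TMG replicates 1 and 2, neuron markers to 460 and 780 and to 692 and 822 CPM, and neural progenitor markers to 1249 and 1047 and to 1033 and 653 CPM. Mesenchyme markers summed to 1046 and 1189 CPM in control and to 1148 and 1831 CPM in TMG replicates 1 and 2. Over all 138 genes edgeR called 0 on D12, 48 had an unadjusted p under 0.05, and DESeq2 called 14.

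**Figure D4:**
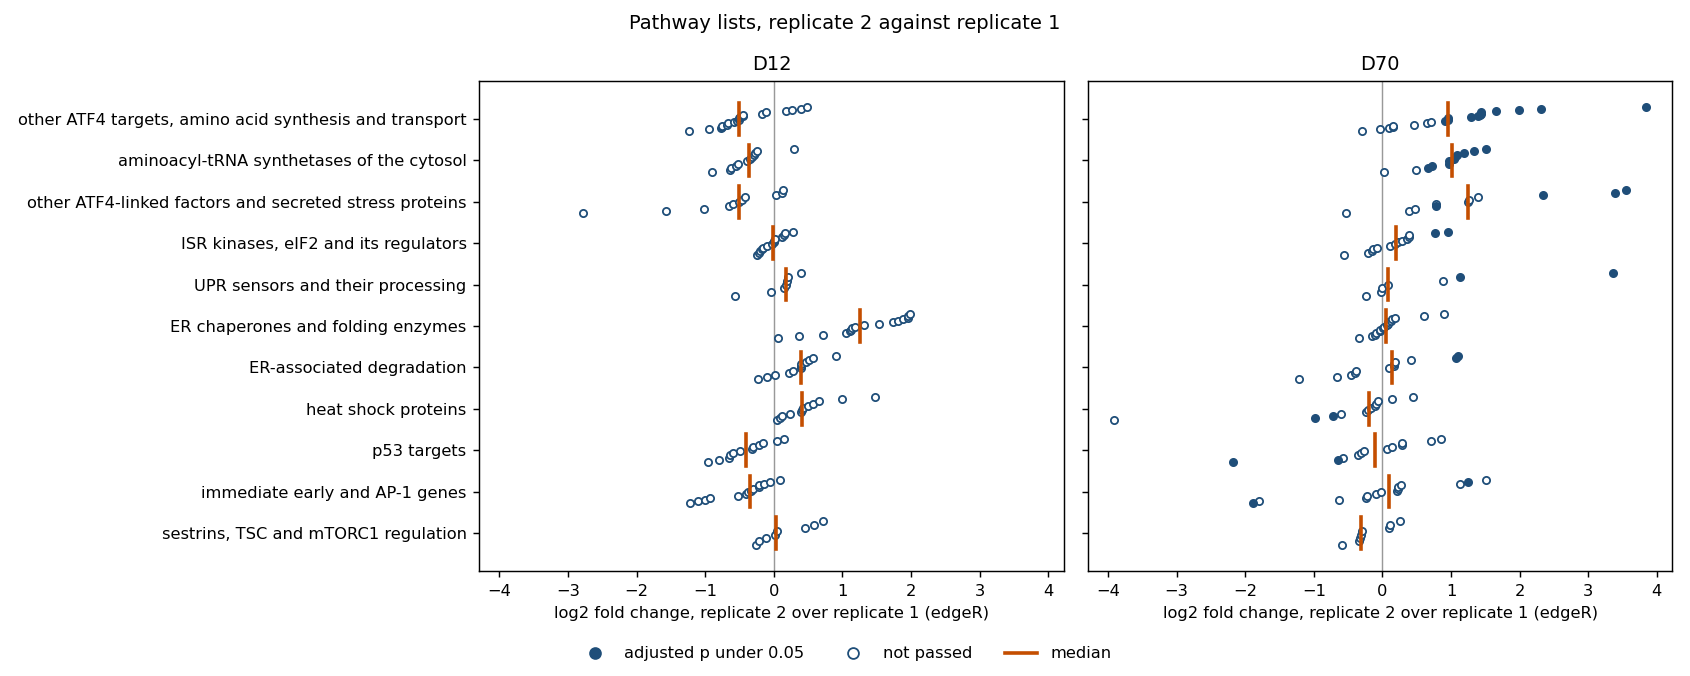
Log2 fold change of replicate 2 over replicate 1 on D12 and D70 for the genes of the 11 stress lists, 1 point per gene, filled where edgeR's adjusted p was under 0.05, with an orange bar at the median. The chaperone median is 1.25 on D12 and 0.05 on D70, while the synthetase median is -0.37 on D12 and 1.01 on D70.

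For TMG against control, edgeR called 0 of the 138 list genes at each stage and for the mean. Unadjusted p under 0.05 was found for 1, 5, 20 and 3 of them on D0, D12, D30 and D70 and for 18 in the mean. These are 0.725%, 3.62%, 14.5%, 2.17% and 13% of the list genes, beside 1.26%, 2.48%, 11.99%, 5.49% and 11.8% of all genes. DESeq2 called 4 (2.9%) on D30 and 4 in the mean, beside 2.46% and 2.12% of all genes, and 0 otherwise. On D30, ER chaperones had a median log2 fold change of -0.33, with 2 of 16 positive, and amino acid genes one of 0.54, with 14 of 20 positive. Without TMG replicate 2, the D30 library high in mesenchyme markers, these were -0.59 with 0 of 16 positive and -0.18 with 6 of 20 positive. Without TMG replicate 1 they were -0.13 with 7 of 16 and 1.00 with 17 of 20. With the replicate number as a block within each stage, edgeR called 6 list genes on D30 and 1 in the mean, beside 0.961% and 0.272% of all genes. The list genes with the lowest p without the block were STC2, a secreted glycoprotein (-1.03, adjusted p = 0.209), and PPP1R15B, which directs the phosphatase of eIF2 (-0.79, adjusted p = 0.209), both on D30. DERL3 of ER-associated degradation (-1.85, adjusted p = 0.238), EPRS1 of tRNA charging (-0.84, adjusted p = 0.287) and CTH of cysteine synthesis (-0.92, adjusted p = 0.346) followed on the same day. Of these 5, the block within each stage called STC2 (-1.04) and EPRS1 (-0.83), and DESeq2 called STC2, PPP1R15B and DERL3. DEPTOR, an mTOR inhibitor, had -1.23 (adjusted p = 0.401) and CREB3L2 0.86 (adjusted p = 0.446). In the 4 other lists the lowest p belonged to BAX (-0.56) and HSPB1 (0.67) on D12 and to FOSL1 (1.17) and ERO1A (-0.86) on D70, each with an adjusted p of at least 0.874. With 1 library left out, DEPTOR ran from -1.88 to -0.53 and CTH from -1.36 to -0.58 on D30. HSPB1 on D12 ran from 0.31 to 1.15.

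Across differentiation in control cells, 38 of the 138 list genes (27.5%) passed edgeR's test for D70 against D0, beside 29.8% of all genes and no member. As a whole the lists were thus close to the share of all genes, and the counts by list are given as a description. Of the 24249 genes tested, 3649 were called higher and 3569 lower on D70, and the counts are to be read beside these. Sensors of the unfolded protein response and the proteases that process them had 4 of 7 higher on D70 (median 1.00), led by the protease MBTPS2 (1.36, SE 0.25, adjusted p = 0.00277). Other ATF4-linked factors had 5 of 11 higher (median 1.44), led by the angiogenic factor VEGFA (2.12, SE 0.34). Genes of ER-associated degradation had 3 of 12 higher, and sestrins with mTORC1 regulators 3 of 8 higher, led by SESN3 (1.99, SE 0.25), a relative of SESN2. Of the chaperones, 1 of 16 was higher, DNAJB9 (2.06, SE 0.39).

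Amino acid genes had 1 of 20 higher and 3 lower on D70, led by the arginine transporter SLC7A3 (-4.24, SE 0.40). Of the synthetases, 2 of 12 were lower, led by LARS1 (-0.97, SE 0.24). LARS1 lost the call without D0 control replicate 1 and without D70 control replicate 1. Of all genes tested, 14.7% were called lower with all libraries. Leaving out the 3 libraries highest in mesenchyme markers, D70 control replicate 2 among them, left 1 library in D70 control. No counts by list are drawn from that fit. Integrated stress response kinases and eIF2 regulators had 1 of 14 lower with all libraries, the kinase EIF2AK4 (-0.77, SE 0.15), which senses amino acid shortage. P53 targets had 4 of 12 higher and 3 lower, led by AEN (-2.75, SE 0.26), and immediate early genes 1 of 14 higher and 3 lower, led by FOSL1 (-4.55, SE 0.38). Heat shock proteins had 2 of 12 higher and 2 lower, led by HSPA4 (-1.15, SE 0.18). Leaving out any of the D0 or D70 control libraries lowered the number of the 138 list genes that passed. The share of all genes that passed fell as well. Each of these fits left 1 library in D0 control or in D70 control. The 4 p53 targets higher on D70 became 1 without D0 control replicate 1 and 0 without D0 control replicate 2 or D70 control replicate 1. No heat shock gene passed as higher without either D0 control library.

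The members also differed in how closely they tracked one another. Over the 16 libraries, which are shared by all genes and span the stages, CHAC1 and ASNS had a Pearson correlation of log2 CPM of 0.913, CHAC1 and SESN2 one of 0.839, ATF4 and CHAC1 one of 0.826, and ATF4 and ASNS one of 0.769. TRIB3 and XBP1 had 0.785, and the lowest value was that of ATF3 with ASNS, at -0.557. ATF4 had 0.735 with SESN2 but only 0.270 with TRIB3, 0.248 with DDIT4 and 0.159 with DDIT3, and -0.358 with ATF3. ATF4 thus ranked most like CHAC1, ASNS and SESN2 across libraries.

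Among all genes tested, the one most like HSPA5 was HSP90B1 (0.951), the one most like CHAC1 was the glycyl-tRNA synthetase gene GARS1 (0.933), and the one most like ASNS was ADM2 (0.932). The nearest gene was LINC01102 for TRIB3 (0.960), NUAK2 for ATF3 (0.939), GGT6 for SESN2 (0.904) and GAS5-AS1 for ATF4 (0.882). DDIT3 was nearest to PRPF18 (0.877), XBP1 to ALOX12B (0.860) and DDIT4 to HAND2-AS1 (0.853). These correlations are descriptions over 16 libraries of unequal depth and cell type makeup.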

How the data were processed

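Total RNA was depleted of rRNA and made into libraries with NEBNext kits. The authors aligned reads with Bowtie2 to hg19 and estimated counts per gene with RSEM 1.2.12 and an Ensembl GRCh37 annotation, per the labels and the study's methods. The deposited expected counts are whole numbers. Filters and strand settings are not given in the sources used here. Positions are those of GENCODE v44 lifted to GRCh37.

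Counts were filtered (edgeR filterByExpr, minimum count 10, minimum total 15), TMM-scaled and tested in edgeR 4.0.16 (R 4.3.3, limma 3.58.1) by the quasi-likelihood F test over 8 groups, with 8 residual degrees of freedom (4 for the replicate comparison) and Benjamini-Hochberg adjustment over 24249 genes at 5%. The standard error is the log2 fold change divided by the root of F. Correlations used log2 CPM with a prior count of 2. Tables and figures were made in Python 3.11.15 with pandas 2.3.3, numpy 2.4.6 and matplotlib 3.10.9. The code was tested on simulated data.

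Alternatives were DESeq2 1.42.0, RLE scaling, no filter, a replicate block, fits of single stages and leaving out each library. The replicate comparison and leaving out 3 libraries were added after seeing the data. Named were all members, the list gene with the lowest p for D70 against D0 and for TMG, each member's nearest gene, and genes said to be picked later. One gene that this rule names is not reported here. Members and lists were chosen with earlier results of these data known.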

Additional observations from a re-analysis of the deposited data

How the results depend on the processing

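The 90 log2 fold changes taken up by the naming rule or the text and 18 counts of members called were recomputed. Under other tools, scalings, filters, blocks and single-stage fits, 381 of 403 values kept direction and side of the threshold and 3 turned direction. Leaving out 1 library, 421 of 480 did and 41 turned. Leaving out the 3 libraries highest in mesenchyme markers, 39 of 50 did and 10 turned. The causes were not tested.

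Counts of members called moved as follows. DESeq2 called 1 for D12, D30 and D70 against D0, 2 for D70 against D12, and for replicate 2 against replicate 1 it called 3 on D12 and 1 on D30. Leaving out those 3 libraries left 1 library in D70 control, so no count is drawn for D70 against D0. Leaving out 1 library gave 0 to 1 for D12 against D0, D30 against D0 and D70 against D12, 0 to 2 for D70 against D0, and 4 to 6 for replicate 2 against replicate 1 on D70.

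Replicate numbers deviated together with correlations of 0.0453, 0.367, 0.223 and 0.607 on D0, D12, D30 and D70. The value on D0 was under the 0.1 asked of every stage, so the numbers were not taken as pairs, although the 3 later stages were above it. With the number as a replicate block, 1 member was called for D70 against D0 (DDIT4, log2 fold change 0.96), beside 30.5% of all genes, and ATF4 turned to -0.013 for TMG on D30. With a block within each stage, 233 genes in place of 0 were called for TMG on D30, with 0 members among them, and ATF4 turned to -0.030 on D30 and -0.0045 in the mean.

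Without the 3 libraries, TMG log2 fold changes on D30 turned for ATF4 (-0.54), TRIB3 (-0.51), CHAC1 (-0.87), ASNS (-0.12) and SESN2 (-0.13), in the mean for ATF4 (-0.19), TRIB3 (-0.15) and CHAC1 (-0.36), and on D70 for CHAC1 (-0.23). TRIB3 for D70 against D30 turned to -0.077.

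Leaving out 1 library turned these TMG values, given as ranges. On D30: ATF4 -0.51 to 0.43, TRIB3 -0.48 to 0.94, CHAC1 -0.82 to 2.74, ASNS -0.085 to 1.15, XBP1 -0.23 to 0.22 and SESN2 -0.095 to 0.45. In the mean: ATF4 -0.18 to 0.15, TRIB3 -0.53 to 0.73, CHAC1 -0.14 to 0.92, HSPA5 -0.65 to 0.11, XBP1 -0.029 to 0.14 and SESN2 -0.27 to 0.11. On D0, DDIT3 -1.26 to 0.66. On D12, HSPA5 -1.79 to 1.28 and ATF4 -0.20 to 0.22. On D70, DDIT4 -1.38 to 0.25, CHAC1 -1.75 to 2.13 and DDIT3 -1.34 to 0.61. TRIB3 for D70 against D30 ran from -0.11 to 3.23, and HSPA5 for replicate 2 against replicate 1 on D70 from -0.24 to 0.36.

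With 2 libraries a group precision is low, and CHAC1, at 17 to 314 counts, is the least precisely counted member.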
